A study of Rattus norvegicus with 8 samples.

Results

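Of the 620 rows of known rat miRNAs counted in these kidneys, 11 belong to the miR-10 and miR-196 hairpins that lie inside the Hox clusters. They were chosen by name alone, as every row named miR-10a, miR-10b, miR-196a, miR-196b or miR-196c in any arm, and hold 5 miR-10 rows and 6 miR-196 rows. Small RNA of the kidney was sequenced from 8 male Big Blue transgenic rats of the Fisher 344 strain. The labels give an age of 6 weeks, which cannot be the age at sampling, as the dosing lasted 12 weeks. The 4 rats of the AA group received aristolochic acid, a plant nephrotoxin and carcinogen, as its sodium salt at 10 mg/kg in 5 gavage doses weekly over 12 weeks, and the 4 control rats received saline on that schedule. A label field names the tissue as liver, while the study and the other labels name the kidney. The liver miRNA miR-122 was at 53.0 CPM in control library 1 and at 4.05 to 5.89 CPM in the other control libraries. It was at 523 CPM in AA library 2 and at 0.696 to 2.96 CPM in the other AA libraries. The 6 nephron miRNAs summed to 163912 to 235702 CPM in the control libraries. CPM is the read count normalised to library size, with the libraries scaled by the TMM factors of edgeR. The libraries held 13412373 to 15616670 reads on known miRNAs.

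Hox genes encode transcription factors that set position along the body axis, and they lie in 4 clusters named HoxA to HoxD. The miR-10 and miR-196 hairpins lie between these genes, are expressed with them, and repress Hox and other mRNAs through the seed, the stretch near the 5′ end of a miRNA that pairs with its targets. miR-196 is known for directing the cleavage of Hoxb8 mRNA. The kidney arises from posterior mesoderm that expresses Hox genes and keeps part of that expression in the adult.

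The 5 hairpins represent all 4 Hox clusters in the RefSeq annotation of the rat assembly GRCr8. Mir10a lies on chromosome 10 between Hoxb5 and Hoxb4, Mir196c on chromosome 10 between Hoxb13 and Hoxb9, Mir10b on chromosome 3 inside the annotated Hoxd4 gene, Mir196a on chromosome 7 between Hoxc10 and Hoxc9, and Mir196b on chromosome 4 between Hoxa9 and Hoxa10. The count table holds no sequences and gives no build, so that RefSeq mature sequences were matched by name, with the row without an arm taken as the 5p arm and the starred row as the 3p arm. In this way 9 of the 11 rows were matched. The 5p arms are shown because together they carry most of the reads on these rows and those of miR-196 differ by single bases. The seed (bases 2 to 8) is in capitals.
rno-miR-10a-5p, chr10:81779730-81779752, plus strand: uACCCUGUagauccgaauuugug
rno-miR-10b-5p, chr3:80035886-80035907, plus strand: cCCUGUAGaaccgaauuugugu
rno-miR-196a-5p, chr7:135988900-135988921, plus strand: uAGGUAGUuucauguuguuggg
rno-miR-196b-5p, chr4:82661149-82661170, minus strand: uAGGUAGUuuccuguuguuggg
rno-miR-196c-5p, chr10:81727561-81727582, plus strand: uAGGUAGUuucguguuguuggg

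The 3 miR-196 sequences share 1 seed, which no other of the 693 RefSeq mature rat sequences carries at that place. They differ from each other at a single position, counted from 1 at the 5′ end with the base of the first-named miRNA written first: A12C from miR-196a to miR-196b, A12G from miR-196a to miR-196c and C12G from miR-196b to miR-196c. The 7 letters of that seed, AGGUAGU, also stand in 8 of 9 let-7 and miR-98 sequences, there from base 3, so that the seeds of both families overlap by an offset of 1 base.
The miR-10b sequence in RefSeq starts 2 bases further along its arm than that of miR-10a, so that the listed seeds differ. The bases just before it in its hairpin are UA. The stretch of the miR-10b hairpin that begins where miR-10a-5p begins differs from miR-10a-5p at U12A alone, as the pair of sequences shows.
rno-miR-10a-5p: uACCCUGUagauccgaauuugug
Mir10b hairpin from 2 bases earlier: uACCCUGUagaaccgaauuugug
A miR-10b read with that earlier start would therefore differ from miR-10a-5p by 1 base. The counts do not give the starts of reads, and how the reads were divided between these rows was not tested. The same holds for the 3 miR-196 rows.

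The HoxB miRNA miR-10a-5p exceeded every other member by more than 2 orders of magnitude. Its reads were 1622860, 1270544, 1837350 and 895619 in control libraries 1 to 4 and 1028243, 1505663, 1677460 and 1026774 in AA libraries 1 to 4. It took 6.52% to 12.1% of the reads of a library and ranked 4 or 5 among the 620 rows in all 8 libraries. It alone made up 98.9% to 99.5% of the reads on the 11 rows. Whether this row also holds miR-10b reads with the earlier start was not tested. Levels are compared as reads without a length term, because the RefSeq matures of these hairpins have 21 to 23 bases. The paper says that sequencing steps such as RNA ligation and PCR amplification can bring in errors. Whether they favoured some of these sequences was not tested. A test over libraries cannot tell such an error, if shared by all libraries, from a difference in abundance. Orders of level and arm ratios are therefore those of reads.

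The HoxA miRNA miR-196b came next, at 2854 to 5063 reads in the control and 4885 to 7478 reads in the AA libraries, with ranks between 75 and 93. The HoxC miRNA miR-196a (rno-miR-196a) had 896 to 1597 reads in the control and 1395 to 2592 in the AA libraries, with ranks between 105 and 122. The HoxB miRNA miR-196c had only 24 to 65 and 57 to 94 reads. The main arms of the miR-196 family thus followed the order HoxA, HoxC, HoxB. The starred arms did not follow it, with 121 to 279 reads for miR-196a*, 16 to 36 for miR-196b* and 12 to 33 for miR-196c*. miR-196b exceeded miR-196a in 8 of 8 libraries, by 1.59 ± 0.17 on the log2 scale (SD, n = 8; exact sign-flip permutation test, two-sided, p = 0.0078, the smallest this test can give, adjusted p = 0.013 over 10 neighbouring pairs).
The 2 HoxB miRNAs, miR-10a-5p and miR-196c, were the highest and the lowest of the 5 main arms in each library except AA library 4, where miR-10b had fewer reads (85) than miR-196c (94). In a control library there were 25411 to 37318 reads of miR-10a-5p for each read of miR-196c, and in an AA library 10923 to 20968.

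**Figure D1:**
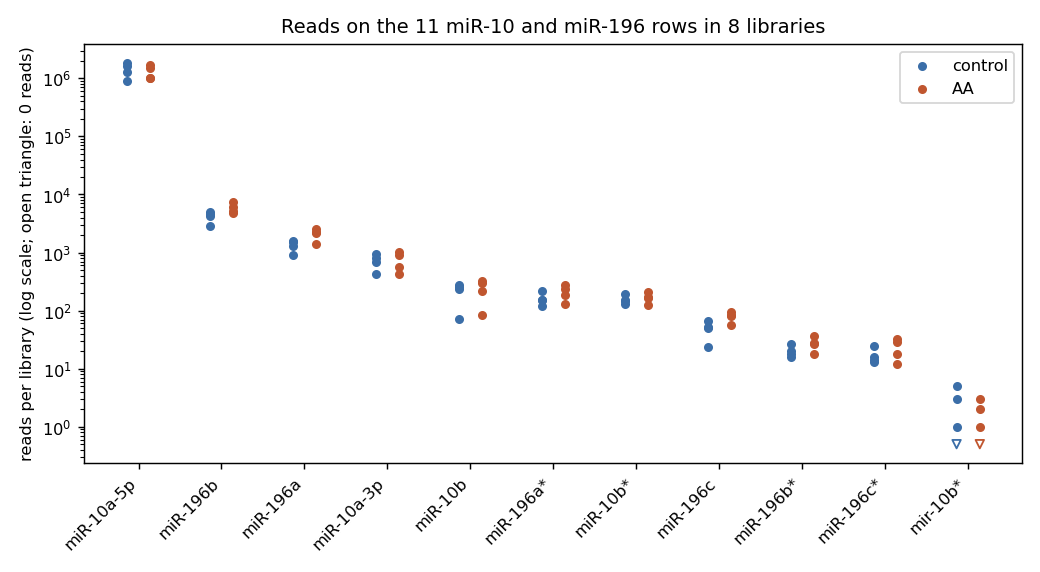
Reads per library (log axis) on the 11 rows, ordered by mean level, with control libraries in blue and AA libraries in orange and open triangles for libraries with 0 reads. miR-10a-5p lies between 895619 and 1837350 reads and the next row, miR-196b, between 2854 and 7478.

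The HoxD miRNA miR-10b (rno-miR-10b) had 271, 238, 250 and 71 reads in control libraries 1 to 4 and 218, 304, 317 and 85 in AA libraries 1 to 4. The libraries numbered 4 were the lowest of both groups, and the other 6 lay between 218 and 317. Its opposite arm miR-10b* had 151, 147, 194 and 129 reads in control libraries 1 to 4 and 126, 211, 167 and 169 in AA libraries 1 to 4. There too library 4 was the lowest of the control group, but at 10.5 CPM against 10.8 to 12.0 in the others, and it was not the lowest of the AA group. In the order of levels, miR-10b, miR-196a* and miR-10b* followed each other without a difference beyond their spread (exact sign-flip permutation test over 8 libraries, adjusted p = 0.73 for miR-10b to miR-196a* and 0.41 for miR-196a* to miR-10b*). Nor did miR-196b* and miR-196c* differ beyond theirs (adjusted p = 0.11 in the same exact test), while each other pair of neighbours did (adjusted p = 0.013 to 0.022). Without control library 3 the difference of miR-196b* and miR-196c* was 0.37 on the log2 scale (exact sign-flip p = 0.047, unadjusted, against 0.086 with all 8 libraries). Without both libraries numbered 4, miR-10b exceeded miR-196a* by 0.73 on the log2 scale (exact sign-flip p = 0.031, unadjusted, n = 6). Those were the libraries lowest in miR-10b, so that leaving them out itself raises the ratio. This p is also the smallest that the test can give with n = 6.
A second row spelled rno-mir-10b*, in lower case, had 0 to 5 reads in a library and 15 in all. It had 0 reads in control library 4 and AA library 3, which allows a share of up to 2.18e-05% and 2.17e-05% of the reads. It was the only member below the test's minimum of 10 reads in 4 libraries, so that 10 of 11 members were tested.

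The arms of a hairpin were unequal to very different degrees. miR-10a-5p had 1494 to 2410 reads for each read of miR-10a-3p, its 3p arm, over the 8 libraries. The 3p arms of both miR-10 hairpins are shown because the hairpins compare so differently on them, again with bases 2 to 8 in capitals.
rno-miR-10a-3p, chr10:81779771-81779792, plus strand: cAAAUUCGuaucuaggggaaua
rno-miR-10b-3p, chr3:80035923-80035943, plus strand: aCAGAUUCgauucuaggggaa
miR-10b had 1.29 to 1.90 reads for each read of miR-10b* in the libraries numbered 1 to 3, and 0.550 and 0.503 in control and AA library 4. Counted on the 3p arms, miR-10a exceeded miR-10b by 2.52 to 5.40 fold, whereas on the 5p arms it did so by 4717 to 12614 fold. How 5p reads were divided between the miR-10a-5p and miR-10b rows was not tested. The 5p ratios of miR-10, between hairpins and between arms, are therefore ratios of rows and not of loci. Among the miR-196 hairpins the main arm exceeded the starred arm by 106 to 277 fold for miR-196b, 4.19 to 12.5 fold for miR-196a and 1.5 to 5.22 fold for miR-196c. None of these arm ratios differed between AA and control beyond the spread between rats, at differences on the log2 scale of -0.08 for miR-10a, 0.05 for miR-10b, 0.32 for miR-196a, 0.10 for miR-196b and 0.40 for miR-196c (exact permutation test, two-sided, p = 0.57, 0.86, 0.49, 0.74 and 0.40).

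The comparison of AA with control asked which of these miRNAs change in the kidney of treated rats. Of the 10 members tested, 0 had an adjusted p-value under 0.05 in the quasi-likelihood test of edgeR, adjusted after Benjamini and Hochberg across the 367 miRNAs tested. Of those 367, 16.3% passed, 10.4% with higher and 5.99% with lower levels in AA. Fold changes are AA over control on the log2 scale, ± the standard error of the fit. At an unadjusted p under 0.05, 1 of the 10 members was counted, against 30% of all tested, and the DESeq2 Wald test likewise called 0 members, with 1 at an unadjusted p under 0.05. The fitted fold change was above 0 in 7 members and below 0 in 3, with a median of 0.19 against 0.06 over all tested miRNAs. The kidney was measured in bulk, so that fewer cells of a type and less RNA per cell cannot be told apart.

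**Figure D2:**
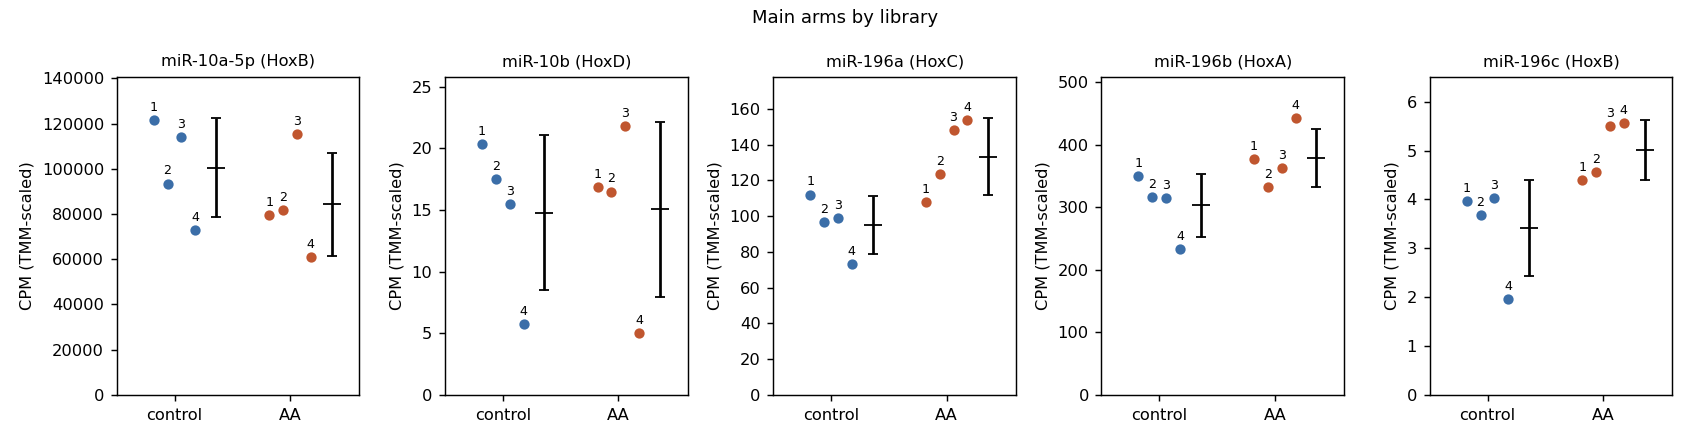
CPM of the 5 main arms in each library, with the library number beside each point, the Hox cluster in the title, and a bar for the mean ± SD of 4 rats. The AA rats lie above every control rat for miR-196c only, and the libraries numbered 4 are the lowest of both groups for miR-10a-5p and miR-10b.

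miR-10a-5p was at 121691, 93496, 113939 and 72958 CPM in control libraries 1 to 4 and at 79477, 81682, 115408 and 60821 CPM in AA libraries 1 to 4. The groups overlapped widely, with library 4 lowest in each. Its fold change was -0.25 ± 0.23 (adjusted p = 0.48, edgeR), from 100521 ± 21888 to 84347 ± 22723 CPM (SD, n = 4 each). The 3p arm miR-10a-3p went from 50.9 ± 11.8 to 46.3 ± 16 CPM (fold change -0.14 ± 0.30). miR-10b was at 14.8 ± 6.31 and 15 ± 7.10 CPM (fold change 0.02 ± 0.46), and its SD of log2 CPM, 0.78 in control and 0.90 in AA, was well above the median of all tested miRNAs, 0.27 and 0.35. miR-10b* had the smallest spread of the members tested, 0.08 and 0.12, at 11.2 ± 0.665 and 10.7 ± 0.927 CPM.

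All 3 miR-196 main arms had higher means in the AA group, though none was called. miR-196a was at 112, 96.5, 99 and 73.0 CPM in control libraries 1 to 4 and at 108, 124, 148 and 154 CPM in AA libraries 1 to 4. The groups overlapped through AA library 1, which lay below control library 1. Its fold change was 0.49 ± 0.20 (unadjusted p = 0.036 and adjusted p = 0.13, edgeR), the smallest p-value of the members.
miR-196b was at 303 ± 49.8 CPM in control and 379 ± 46.5 in AA, with a fold change of 0.32 ± 0.18 (adjusted p = 0.24, edgeR). miR-196c was at 3.97, 3.68, 4.03 and 1.96 CPM in control libraries 1 to 4 and at 4.41, 4.56, 5.50 and 5.57 in AA libraries 1 to 4. It was the only member whose groups did not overlap, 1 of 10 tested against 24.3% of all 367 miRNAs (14.4% with AA higher), and its fold change was 0.55 ± 0.27 (adjusted p = 0.20, edgeR). With the reads of the 3 rows summed, the fold change was 0.37 ± 0.17 (adjusted p = 0.19, edgeR). Control library 4 was the lowest of its group for all 3. Without both libraries numbered 4, the log2 fold changes of miR-196a, miR-196b and miR-196c were 0.26, 0.08 and 0.26.
The starred arms miR-196a*, miR-196b* and miR-196c* had log2 fold changes of 0.17, 0.21 and 0.26, each within its standard error of 0.29 to 0.34. In control library 4, where the main arms were lowest, miR-196a* and miR-196b* had their highest control values, 17.4 and 2.20 CPM.

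**Figure D3:**
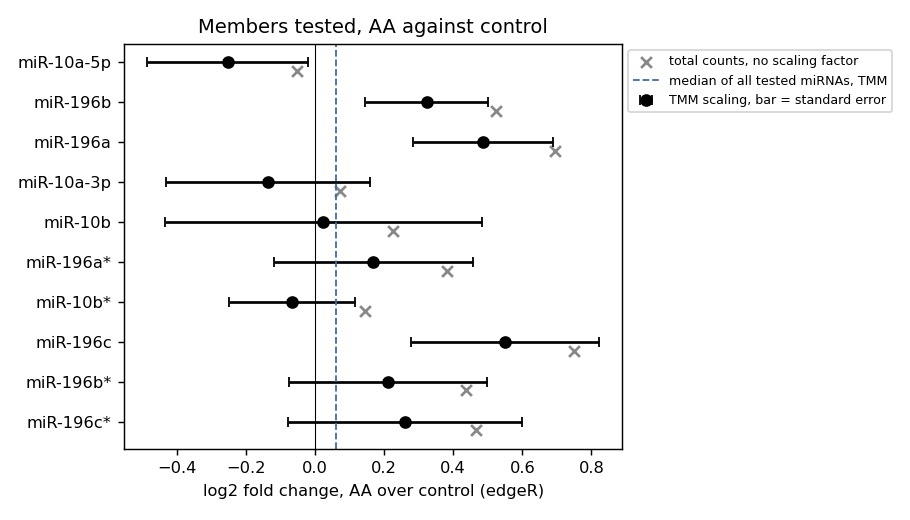
Log2 fold change of AA over control for the 10 members tested (edgeR, TMM scaling, bars are standard errors), with crosses for the fit on total counts and a dashed line at the median of all tested miRNAs, 0.06. The miR-10 rows lie between -0.25 and 0.02 and the miR-196 rows between 0.17 and 0.55, and none passed the threshold.

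A ratio of reads within a library does not depend on the scaling between libraries. Over the 45 pairs of the 10 members, 6 pairs (13.3%) did not overlap between the groups, against 28.1% of all 46360 pairs of miRNAs with at least 10 reads in every library. The 6 pairs were miR-196a and miR-196c, each against miR-10a-5p, miR-10a-3p and miR-10b*. For each read of miR-196a there were 1086, 968, 1150 and 999.6 reads of miR-10a-5p in control libraries 1 to 4 and 737, 660, 779 and 396 in AA libraries 1 to 4. The AA libraries all lay lower, by 0.75 on the log2 scale (exact permutation test, two-sided, p = 0.029, the smallest that 4 against 4 rats allow, adjusted p = 0.21 over 45 pairs). Without both libraries numbered 4 the difference was -0.56. For miR-10a-5p to miR-196b the difference was -0.59, and the groups overlapped through AA library 3 (exact permutation test p = 0.086, adjusted p = 0.48). The ratio of miR-196b to miR-196a was steady in the control group, at 3.12 to 3.27, and spread from 2.45 to 3.50 in the AA group, without a difference in the mean beyond the spread (exact permutation test p = 0.23).

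**Figure D4:**
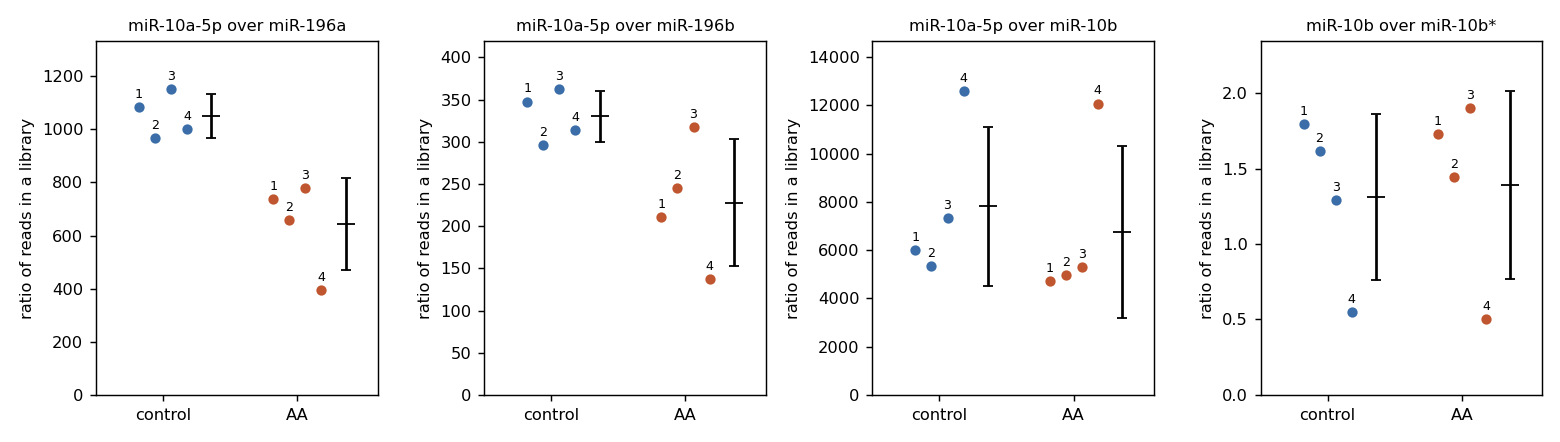
Ratio of reads within each library for 4 pairs of members, with the library number beside each point and a bar for the mean ± SD of 4 rats. miR-10a-5p over miR-196a is lower in every AA library than in every control library, and the ratios with miR-10b set the libraries numbered 4 apart in both groups.

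Relatives outside the rule were set beside the members. miR-615, another miRNA inside a Hox cluster, lies within the annotated Hoxc6 and Hoxc5 genes, and its row had 0 to 9 reads, too few to test. The row rno-mir-615* was at 26.4 ± 6.36 CPM in control and 34.6 ± 16.6 in AA (fold change 0.39 ± 0.32, adjusted p = 0.42, edgeR). Of the 6 rows of miR-99a, miR-99b and miR-100, which descend from the same ancestor as miR-10 but lie outside the Hox clusters, 5 were tested and 0 called, with a median log2 fold change of -0.26. The 8 listed main arms of let-7 and miR-98 were let-7a to let-7f, let-7i and miR-98, without let-7g. Of these 8, 0 were called, with a median log2 fold change of 0.36. At an unadjusted p under 0.05, none of these 14 tested rows was counted.

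Likeness across the 8 libraries was described by the SD of the log2 ratio to a member, over 197 miRNAs with at least 100 reads in each library. A pair that keeps a constant ratio has an SD near 0, and pairs of steady miRNAs score low whatever their function. miR-100 kept the most constant ratio to miR-10a-5p (SD 0.12), ahead of miR-33 (0.13) and miR-200b (0.15), with 0.51 as the median over all 197. Its own 3p arm was at 0.20 and miR-196b at 0.47. miR-872 (0.09), let-7b (0.15) and let-7i (0.15) were nearest to miR-196b, and miR-24-2* (0.12), miR-199a-3p (0.16) and miR-29a* (0.17) to miR-196a, while miR-196a and miR-196b stood at 0.17 to each other. miR-664, miR-32 and miR-200b were nearest to miR-10a-3p, miR-23b, miR-27a and rno-mir-615* to miR-196a*, and miR-28*, miR-22 and miR-29a to miR-10b*.

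Markers of other cells were compared between the same groups. The 6 leukocyte miRNAs summed to 2468 to 3557 CPM in control and 4259 to 8104 in AA libraries, with 3 of 6 called higher (miR-142-3p, miR-146b and miR-223). Of 6 nephron miRNAs 2 were called lower (miR-194, adjusted p = 0.0499, and miR-204, adjusted p = 0.034, edgeR). The sum of all 6 was 126462 to 180753 CPM in AA. Most of it was miR-30a, at 111448 ± 18723 CPM in AA (fold change -0.17 ± 0.17, not called). Of 5 stromal miRNAs 1 was called higher (miR-199a-3p), with sums of 177510 to 237837 CPM in control and 143522 to 184357 in AA. Nearly all of that sum was miR-143, at 198650 ± 26886 CPM in control and 154689 ± 19391 in AA (fold change -0.36 ± 0.17, not called), whereas the other 4 stromal miRNAs had fold changes of 0.27 to 0.80. The 5 epithelial miRNAs (7114 to 10932 CPM in control, 5533 to 9871 in AA) and the 2 red blood cell miRNAs (499 to 798 and 158 to 564) had 0 calls at an adjusted p under 0.05 in edgeR, and 0 at an unadjusted p under 0.05. Every marker was listed, and none was at 0 in any library. Their part in the values of miR-10 and miR-196 was not tested.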

How the data were processed

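The authors deposited whole-number read counts per known rat miRNA and library, without normalization, from reads mapped with miRanalyzer and Bowtie to miRBase. The versions of miRanalyzer and Bowtie were not given in the sources used here, while the paper names the miRBase release of its known rat miRNAs. Each column carries the title of 1 sample, which gave its group and number. The 8 libraries are 1 rat each, and libraries of a group differed by a chi-square of at least 437 per degree of freedom.

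The quasi-likelihood test was that of edgeR 4.0.16 (R 4.3.3) with TMM scaling, Benjamini-Hochberg adjustment and a threshold of 0.05. It ran on the counts of 367 miRNAs, those reaching 10 reads in 4 or more libraries. The standard error is the log2 fold change divided by the square root of F. The step was tested on simulated data with changes larger than that of any member, so that it does not speak to changes of their size. Ratios used a pseudocount of 0.5 reads and exact permutation tests, with scipy 1.17.1. Floors of 3 counts cover counting error only. Alternatives were other scalings, DESeq2 1.42.0, other filters, a replicate block and left-out libraries. The sum of near-identical rows was chosen after seeing the data.

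The members and lists were chosen with earlier results of these data known. The text names all members, the relatives and marker lists, and the 3 miRNAs with the most constant ratio to each member with at least 100 reads. 12 of the 45 pairs were chosen for description with the counts in view. The labels do not say that equal replicate numbers mark a shared batch or day, so that the tests between groups had no block.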

Additional observations from a re-analysis of the deposited data

Results flagged for a closer look

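Values of 46 groups of 4 libraries were examined, and 4 held a library far from the other 3, where about 2.3 would be set apart by chance. miR-196c in control library 4, at 1.96 CPM, lay below the other control libraries (3.68 to 4.03). miR-196b* in control library 4, at 2.20 CPM, lay above them (1.18 to 1.35). The log2 ratio of miR-196b to miR-196b* was low in control library 4, at 6.70 against 7.95 to 8.02. In AA library 4 the log2 ratio of miR-10a-5p to miR-10b was 13.6, against 12.2 to 12.4 in the other AA libraries. The counts behind miR-196c and miR-196b* are small, at 24 and 27 reads.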

How the results depend on the processing

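The count of members called was 0 in all 16 alternatives, with 0.058 the lowest adjusted p (miR-196a, total counts). miR-10a-5p stayed below 0 (-0.44 to -0.05) and miR-196a, miR-196b and miR-196c stayed above 0 (0.26 to 0.70, 0.08 to 0.52 and 0.26 to 0.75) in all of these. Total counts moved the median log2 fold change of all miRNAs from 0.06 to 0.27 and turned miR-10a-3p to 0.071 and miR-10b* to 0.14. With the library number as a replicate block (paired fit), miR-10b was at -0.011 and 78 miRNAs were called in all, against 60 without it, and no member call changed. The DESeq2 Wald test called 76 and total counts 68, of which 79.4% were higher in AA against 63.3%. The correlations of same-numbered libraries' deviations, across 367 miRNAs, were 0.05, 0.22, 0.18 and 0.41 for numbers 1 to 4. All 4 were above 0, with number 1 under 0.1. The labels name no pairing, so that it was not used in the main tests, and the ratio tests between groups are unpaired. miR-10b was at -0.016 with DESeq2 size factors, -0.015 in the DESeq2 Wald test and -0.044 without the 3 most abundant miRNAs. Leaving out 1 library at a time gave 35 to 51 calls over all miRNAs (35 without control library 2 and 37 without control library 1). It gave log2 fold changes of -0.24 to 0.23 for miR-10b, -0.085 to 0.42 for miR-196a* and -0.021 to 0.30 for miR-196c*. The differences in log2 ratio were then -0.56 to 0.0094 for miR-10a-5p to miR-10b, -0.26 to 0.12 for miR-10a-3p to miR-10b*, -0.20 to 0.027 for miR-10a-5p to miR-10a-3p, -0.32 to 0.48 for miR-10b to miR-10b*, -0.0092 to 0.51 for miR-196a to miR-196a*, -0.22 to 0.23 for miR-196b to miR-196b* and -0.18 to 0.015 for miR-196a to miR-196c. Between neighbours in level they were -0.0084 to 0.40 for miR-10b to miR-196a* and 0.22 to 0.37 for miR-196b* to miR-196c* (0.37 without control library 3, where the exact p fell below the threshold). Without both libraries numbered 4, the differences were -0.33 for miR-196b to miR-196b* and -0.054 for miR-196c to miR-196c*, and the neighbours stood at 0.73 for miR-10b to miR-196a* and -0.043 for miR-196a* to miR-10b*. A ratio compared between AA and control with a library left out was not tested, since the two-sided exact test as run cannot then reach 0.05. The cause of these turns was not tested. Counting error was not separated from the spread between rats.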
